A study of Mus musculus with 16 samples.

Results

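The Ifi200 family DNA sensor genes are described here from the gene annotation deposited with a study of mouse macrophages. The members were the gene models whose gene name equals Mnda, Mndal, Ifi202b, Ifi203, Ifi204, Ifi205 or Pyhin1. Each symbol named 1 model, which gave 7 of the 50578 genes counted in the annotation and of its 22159 protein-coding genes. The series holds 16 libraries of macrophages grown in culture from mouse bone marrow over 7 days, with the growth factor M-CSF at 50 ng per ml. RNA-seq covered 3 samples given LPS (lipopolysaccharide, from the outer wall of Gram-negative bacteria) and 3 untreated samples, all from wild-type C57BL/6 mice. RiboTag covered 2 untreated samples, 2 after 6 h and 2 after 24 h with LPS, all from LysM-Cre x RiboTag mice, in which Cre driven by a myeloid promoter puts an HA tag on ribosomes and an antibody to the tag recovers the RNA bound to them. Ribosome profiling, labelled CHX, covered 2 LPS and 2 untreated samples from wild-type C57BL/6 mice. For RNA-seq and profiling, LPS times per sample are not given in the sources used here. Of the 1544831 lines of the annotation 0 carry a score, and no values per sample were analysed here. No member is therefore described as changed by LPS, the depth is unknown, and the labelled cell type was not checked against its markers. Gene models are not replicates, so the counts and lengths have no error and no test.

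The members belong to a family of interferon-inducible proteins that typically join a pyrin domain, through which proteins assemble, to a HIN domain, which binds DNA. In macrophages the best known relative, AIM2, senses DNA in the cytosol and starts an inflammasome, the complex in which caspase-1 matures interleukin-1 beta. The mouse cluster holds more of these genes than the human one.

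All 7 models lay on chromosome 1 of build mm10, within chr1:173630917-174031810, a stretch of 400.9 kb. Pyhin1, whose human counterpart is known as IFIX, occupied chr1:173630917-173647928 on the plus strand. The other 6 members were on the minus strand. Ifi204, which encodes the DNA sensor p204, occupied chr1:173747293-173766943. Mndal, named for its likeness to MNDA, occupied chr1:173857220-173942491, and Mnda, the namesake of a human nuclear antigen of myeloid cells, occupied chr1:173896345-173913046. Ifi203 occupied chr1:173920407-173942672. Ifi202b, which encodes the AIM2 inhibitor p202, occupied chr1:173962568-173982744. Ifi205, which encodes p205, a protein known to control expression of the inflammasome adaptor gene Pycard in mouse macrophages, occupied chr1:174011998-174031810.

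The members fell into a spread left side and a dense right side. The gap from Pyhin1 to Ifi204 was 99364 bases and held 5 other models, and the gap from Ifi204 to Mndal was 90276 bases and held 3. On the right, Mnda and Ifi203 were 7360 bases apart, Ifi203 and Ifi202b 19895 bases, and Ifi202b and Ifi205 29253 bases. The spans of Mndal and Mnda overlapped. In all the interval held 17 models, of which 10 were not members. Of these, 2 were protein-coding relatives, Pydc3 and AI607873, and 6 were pseudogene models, Gm18752, Gm7871, Gm16340, Gm7897, Gm38050 and Gm18445. The remaining models were a microRNA model of 84 bases, AC117682.1, on the opposite strand inside Pyhin1 with 0 exon bases in common, and Gm20134, a model of 874 bases from outside the Ensembl sources. The nearest protein-coding neighbours outside the interval were Pydc4, a further relative, at 31642 bases from Pyhin1, and the olfactory receptor gene Olfr433 at 9307 bases from Ifi205.

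**Figure D1:**
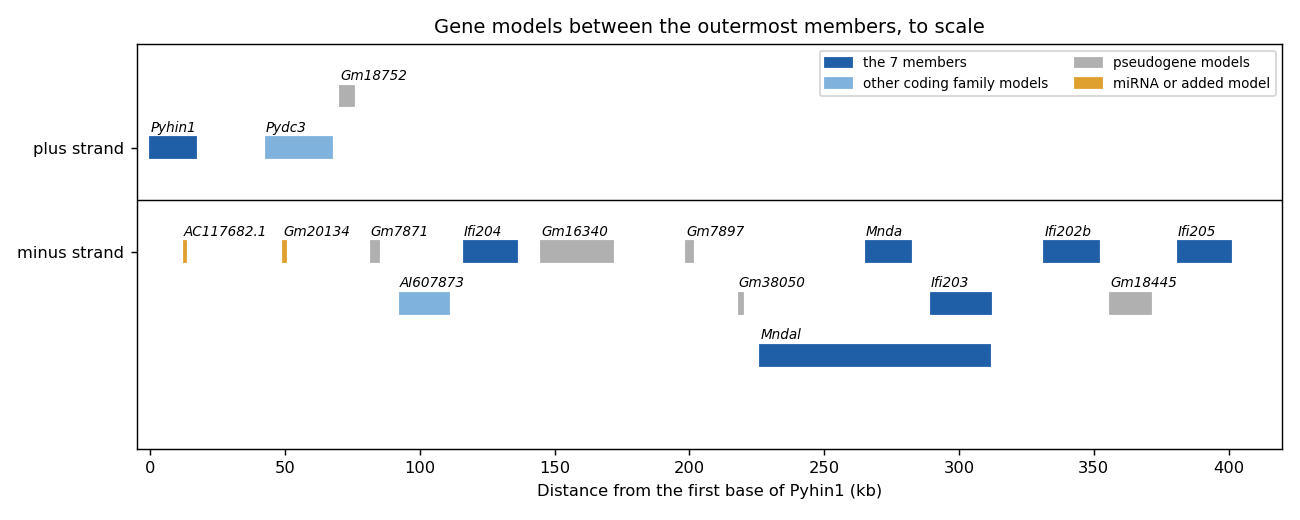
Gene models between the outermost members, with the distance from the first base of Pyhin1 (kb) on the horizontal axis and the strands above and below the line; each bar is 1 model from its first to its last base, and rows within a strand only separate neighbours. Pyhin1 is the only member above the line, and the 85.3 kb bar of Mndal runs under all of Mnda and most of Ifi203.

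Promoter windows were taken from RefSeq on build GRCm38.p6, the assembly that UCSC names mm10, as 250 bases before to 50 bases after a RefSeq start. They were found for 6 of the 7 members, not for Ifi204, with 8 windows in all, since Mndal and Ifi203 had 2 each. RefSeq lists Mnda as Ifi211 and Pyhin1 as Ifi209, and these were matched by gene ID. The core of the interferon-stimulated response element, spelled GAAA, 2 free bases and GAAA, was searched on both strands. The 30 bases around the match upstream of the start are shown for the members that had it on the sense strand, 5′ to 3′ on the minus strand, with the core in capitals.
Mndal, window 2, chr1:173880204-173880233: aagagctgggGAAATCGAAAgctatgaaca
Ifi203, window 1, chr1:173942508-173942537: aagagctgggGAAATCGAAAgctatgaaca
Mnda, chr1:173913064-173913093: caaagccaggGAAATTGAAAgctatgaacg
Ifi205, chr1:174031870-174031899: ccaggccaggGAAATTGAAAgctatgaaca

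These 4 stretches were selected for the core, so they share its fixed letters by that choice. They also share nearly all bases after it. Those of Mndal and Ifi203 were identical at 30 of 30 bases although they lie at separate places. Counting positions from 1 at the 5′ end, the stretch of Mnda differed from that of Ifi203 at 6 positions (A1C, G3A, T7C, G8A, C16T and A30G), of which only C16T lies in the core, at a letter the pattern leaves free. The stretch of Ifi205 differed at 7 positions (A1C, A2C, G3A, A4G, T7C, G8A and C16T). The core ran from -36 to -27 relative to the RefSeq start in Mndal, from -35 to -26 in Ifi203 and from -37 to -28 in Mnda, but from -134 to -125 in Ifi205. These positions depend on the start used, and an annotated Ifi205 transcript without a coding sequence starts 55 bases upstream of the RefSeq start. The core of Mndal also lay in an exon of 1 Mndal transcript that starts further upstream.

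A window with this core was present in 4 of the 6 members with windows, against 3.44% of all 32851 RefSeq windows. Counted by gene, as the members are, the share was 3.99% of 27025 genes. The other window of Mndal held the core on the reverse strand, from -54 to -45, in an exon of 1 Mndal transcript. Ifi205 held a further match on the reverse strand, from 24 to 33, inside its exons. Pyhin1 and Ifi202b held no exact match. With 1 mismatch allowed, all 6 members matched, and so did 35.4% of all windows. In Pyhin1 the sense-strand stretch most like that of Ifi203 lay on the plus strand and was identical at 21 of 30 bases, with 1 difference in the core (G11T).
Pyhin1, chr1:173630770-173630799: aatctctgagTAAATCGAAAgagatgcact

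In Ifi202b the best such stretch was identical at 15 of 30 bases, a level that 54.9% of all windows reached. The letters TTCNNNGAA, the interferon-gamma-activated site, read the same on both strands. They occurred in 1 of the 6 members, Ifi202b, against 8.3% of all windows and 9.55% of genes. This match ran from -148 to -140, and its letters are in capitals.
Ifi202b, chr1:173982973-173983002, minus strand: ctgtcatgatTTCTCAGAAtaactactgag

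The RefSeq start of Ifi202b lay 100 bases upstream of the annotated start and that of Pyhin1 58 bases upstream. That of window 1 of Mndal lay 153 bases downstream of the nearest annotated start. The NF-kappaB letters, GGG, 5 free bases and CC on either strand, occurred in Pyhin1, Mndal and Ifi203. That is 3 of 6 members, against 50.8% of all windows and 53.5% of genes. The searched patterns can overlap each other, and a match describes letters, not a site that a factor uses.

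The 30 bases of Ifi203 were also compared with every sense-strand position of all 32851 windows, a search chosen after the members' stretches had been seen. Windows with 22 or more identical bases numbered 9, or 0.0274%. All 9 belonged to the family. They were Ifi203 with 30, a match to itself, Mndal with 30, Mnda with 24 and Ifi205 with 23. The others were the relatives that RefSeq names Ifi206, Ifi208 and Ifi213 with 23 and Ifi207 and Ifi214 with 22. At 21 or more identical bases there were 14 windows, among them that of Pyhin1 with 21. The genes of the other windows added at this level are not listed here.

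**Figure D2:**
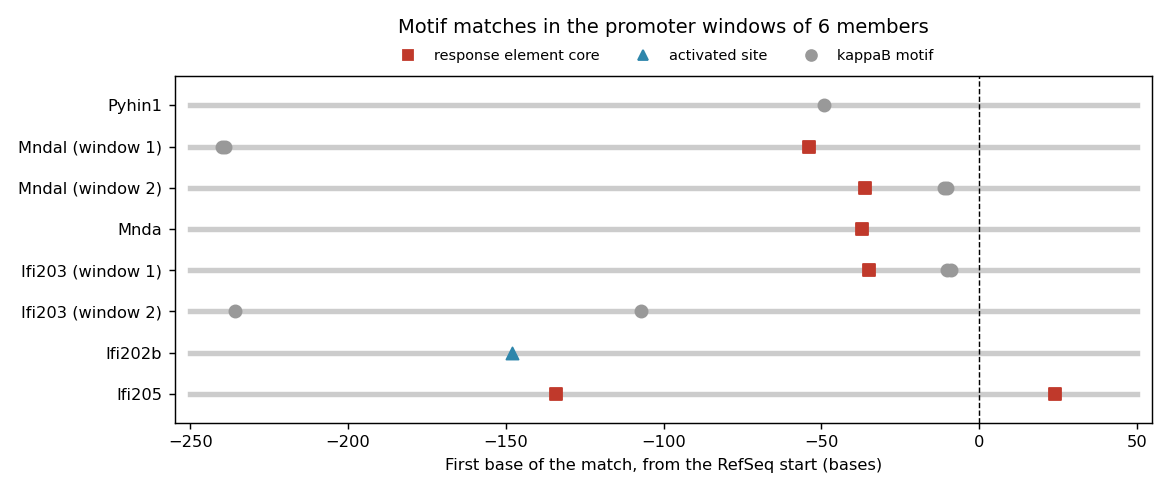
Exact motif matches in the 8 promoter windows of 6 members, with the first base of each match relative to the RefSeq start (bases) on the horizontal axis; squares are the response element core, triangles TTCNNNGAA and circles the NF-kappaB letters, on either strand. The squares of Mndal (window 2), Mnda and Ifi203 (window 1) line up between -37 and -35, while the square upstream of Ifi205 is at -134.

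The windows were also aligned locally, so identity refers to the aligned part only. Window 2 of Mndal and window 1 of Ifi203 were identical at 282 of 289 aligned columns (97.58%), and the windows of Mnda and Ifi205 at 189 of 201 (94.03%). Mnda and Ifi203 were identical at 182 of 257 columns (70.82%). As a share of the whole window, the identical bases were 94% for Mndal and Ifi203. They were 63% for Mnda and Ifi205, close to 62.33% for Mndal (window 2) and Mnda and 60.67% for Mnda and Ifi203 (window 1). Over 90 ungapped bases around the core, Mnda and Ifi205 were identical at 78 bases, Mnda and Ifi203 at 51, and Ifi203 and Ifi205 at 46. Of the 60 bases before the core, 49 were identical between Mnda and Ifi205 and 26 between Mnda and Ifi203. Of the 20 bases after it, 19 were identical between Mnda and Ifi205 and 16 between Mnda and Ifi203. Between Ifi203 and Ifi205 the counts were 20 before and 17 after the core. Without gaps, the bases after the core were thus more alike among the 3 genes than those before it. There only Mnda and Ifi205 matched at most bases position by position. An inserted or lost base shifts such a comparison and lowers its counts. The window alignments, which allow gaps, gave 182 of 257 columns for Mnda and Ifi203 and 137 of 197 (69.54%) for Ifi203 and Ifi205.
Mnda, chr1:173913054-173913143, minus strand: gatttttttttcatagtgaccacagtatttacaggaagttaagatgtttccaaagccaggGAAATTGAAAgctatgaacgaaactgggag
Ifi205, chr1:174031860-174031949, minus strand: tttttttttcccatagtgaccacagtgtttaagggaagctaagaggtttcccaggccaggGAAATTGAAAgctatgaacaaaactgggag
Ifi203, chr1:173942498-173942587, minus strand: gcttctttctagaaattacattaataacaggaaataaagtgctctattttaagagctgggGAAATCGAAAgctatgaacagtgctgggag

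The coding exons of the members repeated the same few lengths. For each member the transcript with the longest coding sequence (CDS) was read, and lengths exclude the stop codon. In 6 of the 7 members the first coding exon had 262 or 265 bases. It had 265 bases in Ifi204, Mnda, Ifi203 and Ifi205, and 262 in Pyhin1 and Mndal. The exon that carries it had 285 bases in Ifi204, Mndal, Mnda, Ifi203 and Ifi205 and 282 bases in Pyhin1. Of those bases 23 were untranslated in Mndal and 20 in the other 5. Ifi202b differed, with a first coding exon of 120 bases inside an exon of 173. Its protein is known to lack the pyrin domain that the others carry.

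Toward the 3′ end every member had a coding exon of 405 to 423 bases followed directly by one of 189 bases, both starting at the first base of a codon. The longer exon had 423 bases in Mnda, Mndal, Ifi205 and the first pair of Ifi204. It had 417 bases in Ifi203 and in the second pair of Ifi204, and 414 bases in Pyhin1 and in the first pair of Ifi202b. In the second pair of Ifi202b it had 405. Ifi204 and Ifi202b thus carried the pair 2 times and the other 5 members 1 time. Together the exons of a pair encoded 204 codons in Mnda, Mndal, Ifi205 and the first pair of Ifi204. They encoded 202 in Ifi203 and the second pair of Ifi204, 201 in Pyhin1 and the first pair of Ifi202b, and 198 in the second pair of Ifi202b. Which protein domain the pair encodes was not examined here, since no protein sequence was used.

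The pair was present in 7 of 7 members, against 10 of 22159 protein-coding genes, or 0.0451%. The pattern was written from the members' own lengths, so their count is a description. The other 3 genes were Aim2, AI607873 and Gm4955, all family relatives on chromosome 1. The other 3 protein-coding relatives on the family list did not have it. Pydc3 and Pydc4 ended their longest CDS in coding exons of 68, 298 and 60 bases and of 68, 292 and 60 bases, and BC094916 had 414 coding bases followed by 126. With wider limits, 400 to 430 bases and 186 to 192 bases, 12 genes had it, and those added were Kif26a on chromosome 12 and Trim30b on chromosome 7. When exons of any gene model were read without codon phase, 12 had the pair, and those added were the pseudogene models Gm16340 and Gm18752 of the cluster.

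**Figure D3:**
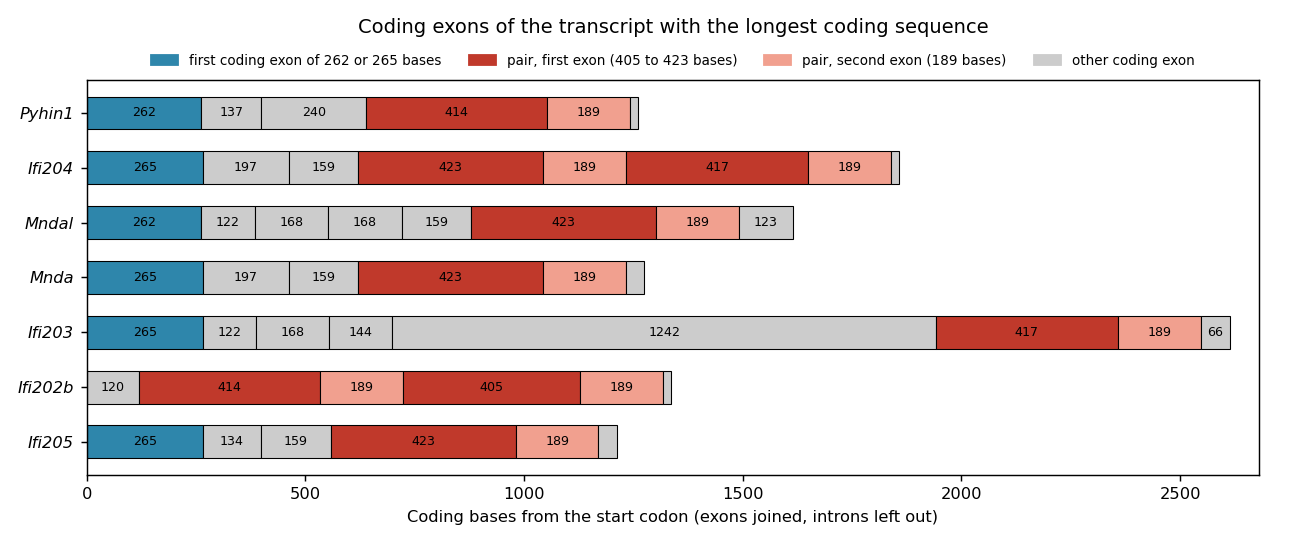
Coding exons of the longest-CDS transcript of each member, joined in order from the start codon, with coding bases on the horizontal axis and exon lengths printed in the bars; exons under 66 bases carry no number. The dark and light red bars of the pair occur 2 times in Ifi204 and Ifi202b, and the 1242-base bar occurs in Ifi203 alone among these 7 transcripts.

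Between the first exon and the pair the members differed. Ifi204 and Mnda had exons of 197 and 159 bases there, Ifi205 had 134 and 159, and Pyhin1 had 137 and 240. Mndal had 122, 168, 168 and 159. Ifi203 had 122, 168, 144 and 1242. The first 5 coding exons of Ifi204 had the same lengths and phases as those of Mnda, after which Ifi204 continued with its second pair. Mnda and Ifi205 had the same length and phase at 5 of their 6 coding exons. They differed only at the second, 197 against 134 bases, a difference of 21 codons. Mndal and Ifi203, whose promoter windows were the most alike, had the same length and phase at 3 of 8 positions. Of the 34 internal coding exons of the 7 transcripts, 28 recurred with the same length and phase in another member.

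From the third coding exon on, the members' internal coding exons kept the reading frame at both ends. Of these exons 27 of 27 (100%) began at the first base of a codon and held whole codons, against 33303 of 140272 (23.74%) in other protein-coding genes. The members repeat the same few lengths, so their exons are not independent of each other. The second coding exon began inside a codon, with 2 bases left before the next, in every member but Ifi202b.

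The longest CDS had 871 codons in Ifi203, 619 in Ifi204, 538 in Mndal, 445 in Ifi202b, 425 in Mnda, 420 in Pyhin1 and 404 in Ifi205. The members' median of 445 codons stood against a median of 395 over 21598 protein-coding genes with a complete CDS, whose quartiles were 257 and 652. Ifi203 was longer than 85.55% of these genes and Ifi205 longer than 50.97%. Ifi203 was thus above the upper quartile, and the other 6 lay between the median and that quartile. Coding exons numbered 8 in Ifi203, Ifi204 and Mndal and 6 in the other 4, with a median of 6 in the members and 6 in all protein-coding genes. The genes' spans had a median of 19813 bases in the members and 16345 in all protein-coding genes. Introns took between 79.8% of the transcript's span in Pyhin1 and 91.8% in Ifi205.

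**Figure D4:**
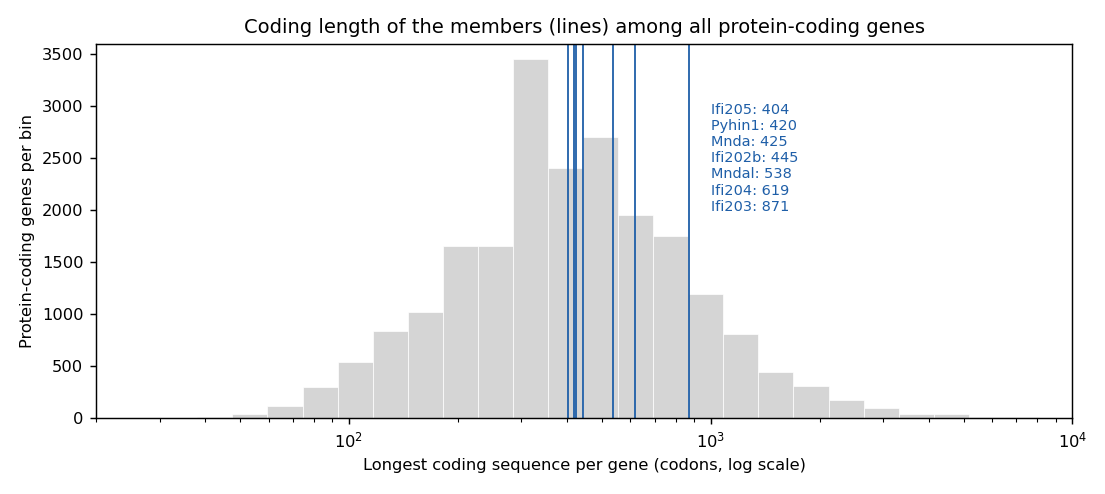
Longest complete CDS per protein-coding gene in codons, on a log axis, with the number of genes per bin on the vertical axis (grey bars) and 1 blue line for each member. The lines run from 404 codons in Ifi205 to 871 in Ifi203, with Pyhin1 (420) and Mnda (425) nearly on top of each other.

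The 7 members had 26 transcripts, of which 14 were labelled protein-coding, 5 processed transcripts without a CDS, 5 with a retained intron and 2 as targets of nonsense-mediated decay, the pathway that degrades RNAs with an early stop codon. Mndal and Ifi203 had 9 transcripts each, and 9 or more were listed for 2 of 7 members, against 10.1% of protein-coding genes. Pyhin1, Ifi204 and Ifi205 had 2 and Mnda and Ifi202b 1. The median was 2 in the members and 2 in all protein-coding genes.

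Ifi203 encoded proteins of 3 lengths, all with the exon pair. Its transcripts with 409 codons, 2 in number, had neither the 144-base nor the 1242-base exon. Another 2 transcripts, with 457 codons, included the 144-base exon of 48 codons. The transcript with 871 codons included both, and the 1242-base exon alone gave 414 codons. The 3′ untranslated region had 2129 bases in the 4 shorter-coding transcripts and 316 bases in the 871-codon one. In Mndal 2 transcripts encoded 538 codons, and 1 without the 159-base exon encoded 485. An incomplete CDS had 184 codons, and the transcript marked for decay had 129, also from an incomplete CDS.

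Pyhin1 was the other member with a transcript marked for decay. Its protein-coding transcript had 420 codons and a 3′ untranslated region of 1917 bases, the longest among the members' longest-CDS transcripts. The other transcript, marked for nonsense-mediated decay, contained an extra exon of 108 bases before the pair and encoded 213 codons. Its stop codon lay 708 bases before the last exon junction. The relative BC094916 had a transcript marked in the same way, also with an exon of 108 bases and 213 codons.

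Mndal was the member whose model reached into others. Its span was 85.3 kb because of 1 transcript, ENSMUST00000111210, an automatic Ensembl model at support level 5. Level 5 was not particular to it. The coding transcript of Ifi204, with 619 codons, and the 485-codon transcript of Mndal also had it. The first exon of ENSMUST00000111210, chr1:173942455-173942491, lies inside Ifi203 and coincides with an exon of 2 Ifi203 transcripts. Its first intron had 62464 bases, longer than 98.51% of 234218 introns of protein-coding genes, whose median was 1431. It ran over all of Mnda, and the transcript covered 22085 bases of Ifi203. The start lay 61610 bases upstream of the next Mndal start. The CDS was the same 538 codons as that of the transcript ENSMUST00000188804, which starts within the rest of the gene. Without the long transcript Mndal spanned 23.7 kb, and the RefSeq gene table ends Mndal at 173880382.

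The exon bases shared between members were those 37 bases of the first exon. They made up 1.075% of the exon bases of Mndal and 0.5517% of those of Ifi203. Any shared exon base on the same strand was found in 2 of 7 members, against 13.3% of protein-coding genes. More than 50% shared was found in 0 of 7, against 7.44%. A transcript start at the same base as another gene's was found in the same 2 members, against 4.57%. A span that holds another whole protein-coding gene on the same strand was found in Mndal, 1 of 7, against 1.11%. The 37 bases are also repeated in the genome at Mndal itself. They were identical at 37 of 37 bases to the first exon of another Mndal transcript, chr1:173880151-173880187. RefSeq lists Mndal as a synonym of Ifi203.

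**Figure D5:**
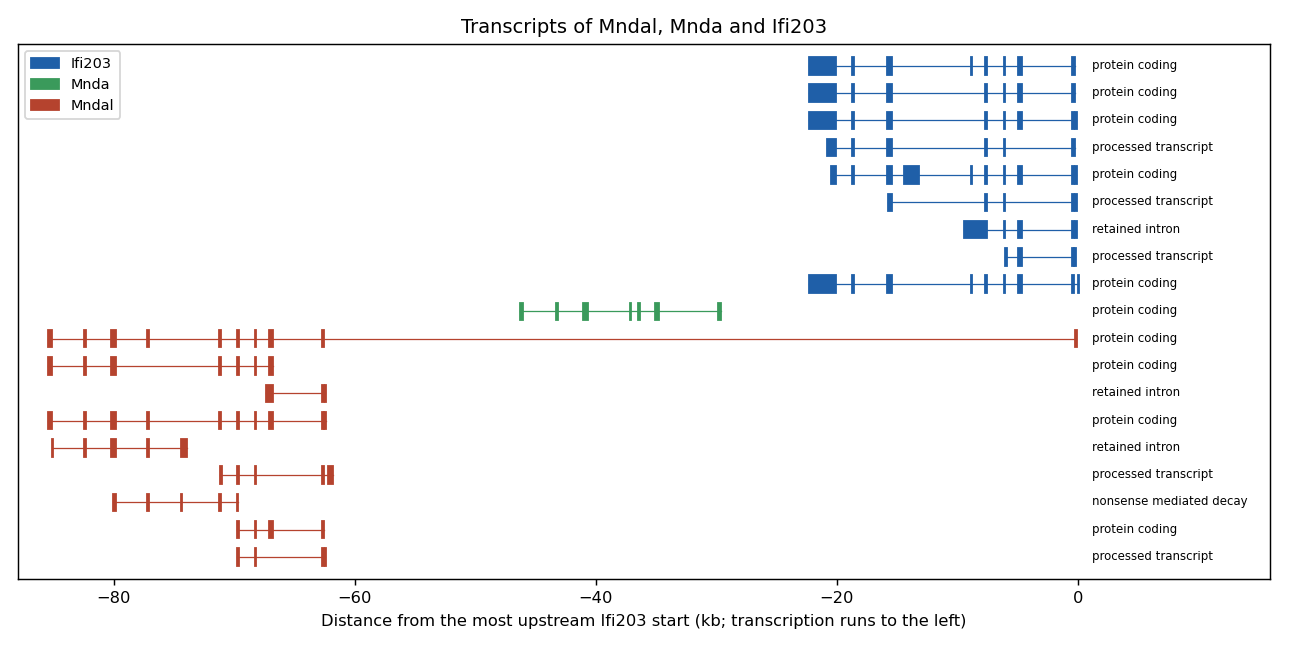
Transcripts of Ifi203, Mnda and Mndal, 1 per line, with the distance from the most upstream Ifi203 start (kb) on the horizontal axis; boxes are exons, lines are introns, and the words at the right are the annotated transcript types. The Mndal transcript that begins among the Ifi203 starts crosses Ifi203 and Mnda in a first intron of 62.5 kb, and the other 8 Mndal transcripts lie to the left of Mnda.

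First bases also varied within members. The 9 Mndal transcripts had 9 different first bases, spread over 73731 bases, or 12121 without automatic models. The most downstream belonged to a retained-intron transcript without a CDS, and the next to the transcript marked for decay, whose CDS is incomplete. The 9 Ifi203 transcripts had 6, spread over 218 bases. Those of Pyhin1, Ifi204 and Ifi205 lay 108, 67 and 55 bases apart within each gene. The 5′ untranslated length of the longest-CDS transcript was between 86 bases in Ifi204 and 259 in Pyhin1.

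Among 17 further family symbols, 7 were found as models, all on chromosome 1. They were Aim2, Pydc3, Pydc4, BC094916, AI607873, Gm4955 and the pseudogene model Gm16340. A table of gene IDs names the last 6 Ifi208, Ifi213, Ifi214, Ifi207, Ifi206 and Ifi203-ps, and no model bore these symbols. Ifi209 and Ifi211, also on the list and not found, are the RefSeq names of the members Pyhin1 and Mnda. The median CDS was 445 codons in the members, against 587 in the 6 protein-coding relatives, which ran from 354 in Aim2 to 978 in AI607873. The members' values come from complete CDSs of protein-coding transcripts. Among the relatives, the 686 codons of Gm4955 come from an incomplete CDS, and the 393 of BC094916 come from a transcript marked for decay. The protein-coding transcript of BC094916 had 219. Ifi203 had its 1242-base exon directly before the pair, and AI607873 had one of 1659 bases at that place. None of the 7 shared an exon base with another model.

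The pathway in which the family acts was read from a list of 20 symbols of cytosolic DNA sensing and inflammasomes. Of these, 18 were found, as 19 models on 10 chromosomes, since Trex1, a DNase that removes cytosolic DNA, had 2 models. The DNA sensor cGAS was found as Mb21d1 and the adaptor STING as Tmem173. Over 50% of exon bases were shared in 0 of the 7 members, against 3 of these 19 models and 7.44% of protein-coding genes. Mb21d1 shared 96.75% of its exon bases. The Trex1 models, whose spans overlap each other on the same strand, shared 100% and 85.1%. Coding lengths ran from 182 codons in Ifnb1, the interferon-beta gene, to 1403 in Naip5, a sensor of bacterial flagellin, with a median of 419. Pycard, which encodes the inflammasome adaptor ASC, had 193 codons, Casp1 402 and Il1b 269.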

How the data were processed

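No library values were analysed here. The deposited file is a gene annotation whose columns of start and end hold positions, counted from 1, on mm10, and the authors gave no score in it. The aligner TopHat2 2.1.1 and mm10 are listed per the submitters' processing notes. Steps that built the annotation are not given in the sources used here. Planned tests of LPS against untreated samples were therefore not run, nor was a protein comparison.

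The members and lists were chosen with earlier results of these data known. By the rule for named genes, all members, models between or sharing exons with them, nearest coding neighbours, and the family and pathway lists were used. Other genes, the exon pair and the searches for similar stretches were chosen after values were seen.

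Models were read with Python 3.11.15, numpy 2.4.6 and pandas 2.3.3, tested on simulated models. Exon sharing counted merged exon bases covered by another model's exons on the same strand. The exon pair was searched in every coding transcript, and other genes' phases came from the longest complete CDS. Promoter windows from RefSeq (GRCm38.p6) were aligned locally with Biopython 1.88 (match 1, mismatch -1, gap opening -2, extension -0.5). Figures used matplotlib 3.10.9. Alternatives changed the sources, strand, transcripts, lengths, thresholds and mismatches.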

Additional observations from a re-analysis of the deposited data

How the results depend on the processing

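Of 23 alternative values, 17 stayed at the main value or, for counts, within 1.5 times of it, and 6 moved. The models in the interval numbered 9, against 17, when only protein-coding Ensembl models were counted. Members with shared exon bases numbered 0, against 2, when only coding bases were read, and also 0 without automatic Ensembl transcripts, a setting added after seeing the data. Both follow from the 37 shared bases being untranslated and belonging to 1 automatic Mndal transcript. Transcripts numbered 14, against 26, when a complete CDS was required. The share of promoters with the response element core was 3.99% by gene, a setting also added later, and 35.4% with 1 mismatch, against 3.44%. Wider exon pairs and exons of any model were added later too. No paired analysis was possible because no values per sample were analysed, and for the same reason the replicate block, normalization, filter and left-out replicates were not run. The protein alternatives were not run. Similarity between members bears on how reads are assigned, which was not measured here.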

Other observations

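Exon lengths of the pseudogene models between the members varied in how near they were to the members' pair. Gm16340 had exons of 285, 122, 169, 417 and 189 bases in that order. The 2 transcripts of Ifi203 with 409 codons had 285, 122, 168, 417 and 189 bases in that order, and the other coding transcripts of Ifi203 had the 144-base exon, or the 144- and 1242-base exons, besides. Gm18445, between Ifi202b and Ifi205, had exons of 417, 192 and 165 bases. Gm18752 had 419 and 189 bases in 1 of its transcripts. Gm7871 had 410 and 208 bases, Gm7897 362 and 192. Gm38050 had exons of 87, 33 and 118 bases, none within the lengths of the pair. Each of these values is a length in the annotation, and their sequences were not used here.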
